A study of Mus musculus with 4 samples.

Results

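The cytosolic ribosomal protein genes were described in osteoclast precursor cells, myeloid cells from which the bone-resorbing osteoclasts form by fusion. Members were taken from the deposited count table by name: Rpl, Rps or Rplp followed by a number and at most the letter a or x, or Rpsa, without pseudogene (-ps) names. The rule gave 76 of 53801 genes, 46 for the large ribosomal subunit and 30 for the small subunit, and all 76 passed the filter on low counts. The cells came from wild type C57BL/6 mice, 2 in number, and are called precursor cells 1 and precursor cells 2. Each was given DKK1 (Dickkopf-1, a secreted Wnt antagonist, 200 ng/ml) or PBS (phosphate-buffered saline, the control) for 3 h. That made 4 libraries, 2 per treatment and 1 pair per precursor cell preparation, with no replicate of a preparation. The labels number the preparations and name 2 mice, without saying in words which preparation came from which mouse. The labels do not say how the precursors were isolated, nor the age of the mice.

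Cytosolic ribosomal proteins assemble with ribosomal RNA in the nucleolus into the large subunit, which forms peptide bonds, and the small subunit, which decodes the mRNA. Their mRNAs are among the most abundant in growing cells, and many begin with a C followed by a run of pyrimidines, the terminal oligopyrimidine (TOP) tract, through which mTORC1 and Larp1 set their translation. Mammalian genomes also carry many processed pseudogenes copied from these mRNAs, so reads from a member and from its copies are hard to part.

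The start sites of members are shown because the TOP tract is the sequence feature this family is known for. RefSeq start-site sequences (GRCm38.p6) were available for 56 of 76 members. A tract was counted where a C lying within 5 bases of the annotated start, on the gene's strand only, opened an unbroken run of at least 6 C or T bases. Of these 56 members, 25 (44.6%) held such a tract, against 3229 of 27025 gene symbols (11.9%). In the following windows, 15 bases before to 15 bases after the start point, 5′ to 3′, the tract stands in capitals.

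Rpl35 (chr2:39005117-39005146, minus strand): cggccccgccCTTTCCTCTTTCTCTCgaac
Rpl15 (chr14:18270972-18271001, minus strand): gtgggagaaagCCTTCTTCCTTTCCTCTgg
Rpl28 (chr7:4792950-4792979, plus strand): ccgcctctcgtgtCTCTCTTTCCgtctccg
Rplp2 (chr7:141447636-141447665, plus strand): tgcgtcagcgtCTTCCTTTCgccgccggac
Rps6 (chr4:86857353-86857382, minus strand): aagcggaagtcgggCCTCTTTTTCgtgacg
Rps15a (chr7:118116133-118116162, minus strand): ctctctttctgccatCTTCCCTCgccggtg
Rps27 (chr3:90213634-90213663, minus strand): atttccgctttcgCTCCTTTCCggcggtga

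Near-identical copies are shown because they bear on the members whose counts moved apart from the rest. The windows below are from GENCODE M21 transcripts (GRCm38), with the differing base in capitals and positions counted from 1 at the 5′ end of the member's transcript. Rpl30 (chromosome 15, 34440505 to 34443640) and the processed pseudogene Gm12191 (chromosome 11, 49678710 to 49679057) were identical at 347 of 348 aligned bases and differed by G273A in the coding sequence.
Rpl30: gtgctgggctacaaGcagactctgaagat
Gm12191: gtgctgggctacaaAcagactctgaagat
Rps27a (chromosome 11, 29545846 to 29548109) and Rps27a-ps2 (chromosome 9, 83409660 to 83410126) were identical at 466 of 467 bases and differed by A507G.
Rps27a: tgtccttctgatgaAtgtggtgctggagt
Rps27a-ps2: tgtccttctgatgaGtgtggtgctggagt
Rpl34 and Rpl34-ps1 were identical at 352 of 354 bases, with T222C and C408G in the coding sequence.
Rpl34: aaagcacctaaatcTgcatgtggcgtgtg
Rpl34-ps1: aaagcacctaaatcCgcatgtggcgtgtg
Rps18 (chromosome 17) and Gm10260 (chromosome 13, annotated as protein-coding) were identical at 540 of 545 bases, with T243C, A394C, G428A and G488A in the coding sequence and G534C in the 3′ UTR.
Rps18: gaactcacggaggaTgaggtggagcgagt
Gm10260: gaactcacggaggaCgaggtggagcgagt

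The libraries held 41163663 to 53537927 counts. Myeloid markers were counted in all 4 libraries, at levels that differed widely. Csf1r, the M-CSF receptor, stood at 2087 to 2450 CPM (counts scaled to library size). Tnfrsf11a, the RANK receptor, stood at 185.2 to 211.9 CPM, and Cx3cr1 at 12.7 to 24.49 CPM. The whole myeloid list (10 symbols, 11 gene IDs, because Itgam has 2) summed to 23510 to 34480 CPM. Most of that sum was Lyz2, at 13420 to 26430 CPM. The preparations parted in expression, and markers of other cell types moved with them, as given beside that comparison. How many members of a gene group changed is read against the share of all 17462 tested genes that passed the same test.

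The members together took 1.41% to 2.40% of all counts in a library. The large subunit genes held 1.41% of the counts with PBS and 1.40% with DKK1 in precursor cells 1, and 0.857% with PBS and 0.864% with DKK1 in precursor cells 2. The small subunit genes held 0.988% and 0.962% (PBS, then DKK1) in precursor cells 1, against 0.557% and 0.572% in the other pair. The share was lower in both libraries of precursor cells 2, and within a preparation the treatments lay close together. The widest 95% Wilson interval of these shares spanned 0.00822 percentage points, which covers counting error only.

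Levels of members are compared per length, as CPM per kilobase of the union of annotated exons, averaged over the PBS libraries. The median level was 112.1 for the large subunit and 104.9 for the small subunit. The highest member was Rplp1, an acidic protein of the ribosomal stalk that recruits elongation factors. Rplp1 stood at 965.8 (PBS) and 963.9 (DKK1) in precursor cells 1 and at 493.1 and 542.2 in precursor cells 2. Rplp0, the stalk base that holds Rplp1 and Rplp2, was next at a PBS mean of 607.2, and its PBS values of 747 and 467.5 overlapped those of Rplp1. Rpl8 followed in the large subunit at 403.6. In the small subunit Rps15 led at 497, before Rps2 at 358.3 and Rps6, the substrate of S6 kinase, at 287.9. PBS values of neighbours in this order overlapped across preparations, since each was lower in precursor cells 2: Rps2 stood at 486.7 and 229.9, and Rps6 at 360.2 and 215.6. Within the PBS library of each preparation, Rplp1, Rplp0 and Rpl8 kept this order, and so did Rps15, Rps2 and Rps6. Rpl4, at a PBS mean of 401.4, lay above Rpl8 with PBS in precursor cells 1 (506.7 against 498).

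The lowest large subunit members were Rpl21 at 11.04, Rpl30 at 16.32 and Rpl35a at 16.61, and the lowest small subunit members were Rps15a at 29.66, Rps19 at 30.42 and Rps13 at 31.38. The span from lowest to highest was 66.08-fold in the large and 16.76-fold in the small subunit. In the large subunit these lowest genes had many counted copies. Their exon unions were also long, at 3400, 3020 and 3526 bases against coding lengths of 480, 345 and 330. Rpl22 followed at 27.91, and its own model held 99.4% of the counts of gene and copies. What set the low levels was not tested. Rpl21 had 65 copy models, and its own model took 13.9% of the counts of gene and copies together, while Rpl30 took 40.8% and Rpl35a 42.1%. In the small subunit the order depends strongly on annotated length. Rps15a has 6270 bases of exon and Rps15 has 630, with coding lengths of 390 and 435 bases. Their PBS counts were closer, at 12087 and 5965 for Rps15a and 22153 and 8649 for Rps15. With the longest transcript as length the medians were 196.6 and 209.2 and the spans 36.67-fold and 16.77-fold. In that order Rplp0 (741.9) stood above Rplp1 (729.5) and Rpl21 was again lowest at 20.23. In the small subunit Rps2 (599.4) then stood above Rps15 (547.4), and Rps13 (35.74) was lowest, just under Rps15a (35.91). Across members, log2 levels correlated at r = 0.991 between PBS and DKK1 of precursor cells 1, at 0.992 in precursor cells 2 and at 0.939 between the PBS libraries (76 genes, which are not independent replicates).

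**Figure D1:**
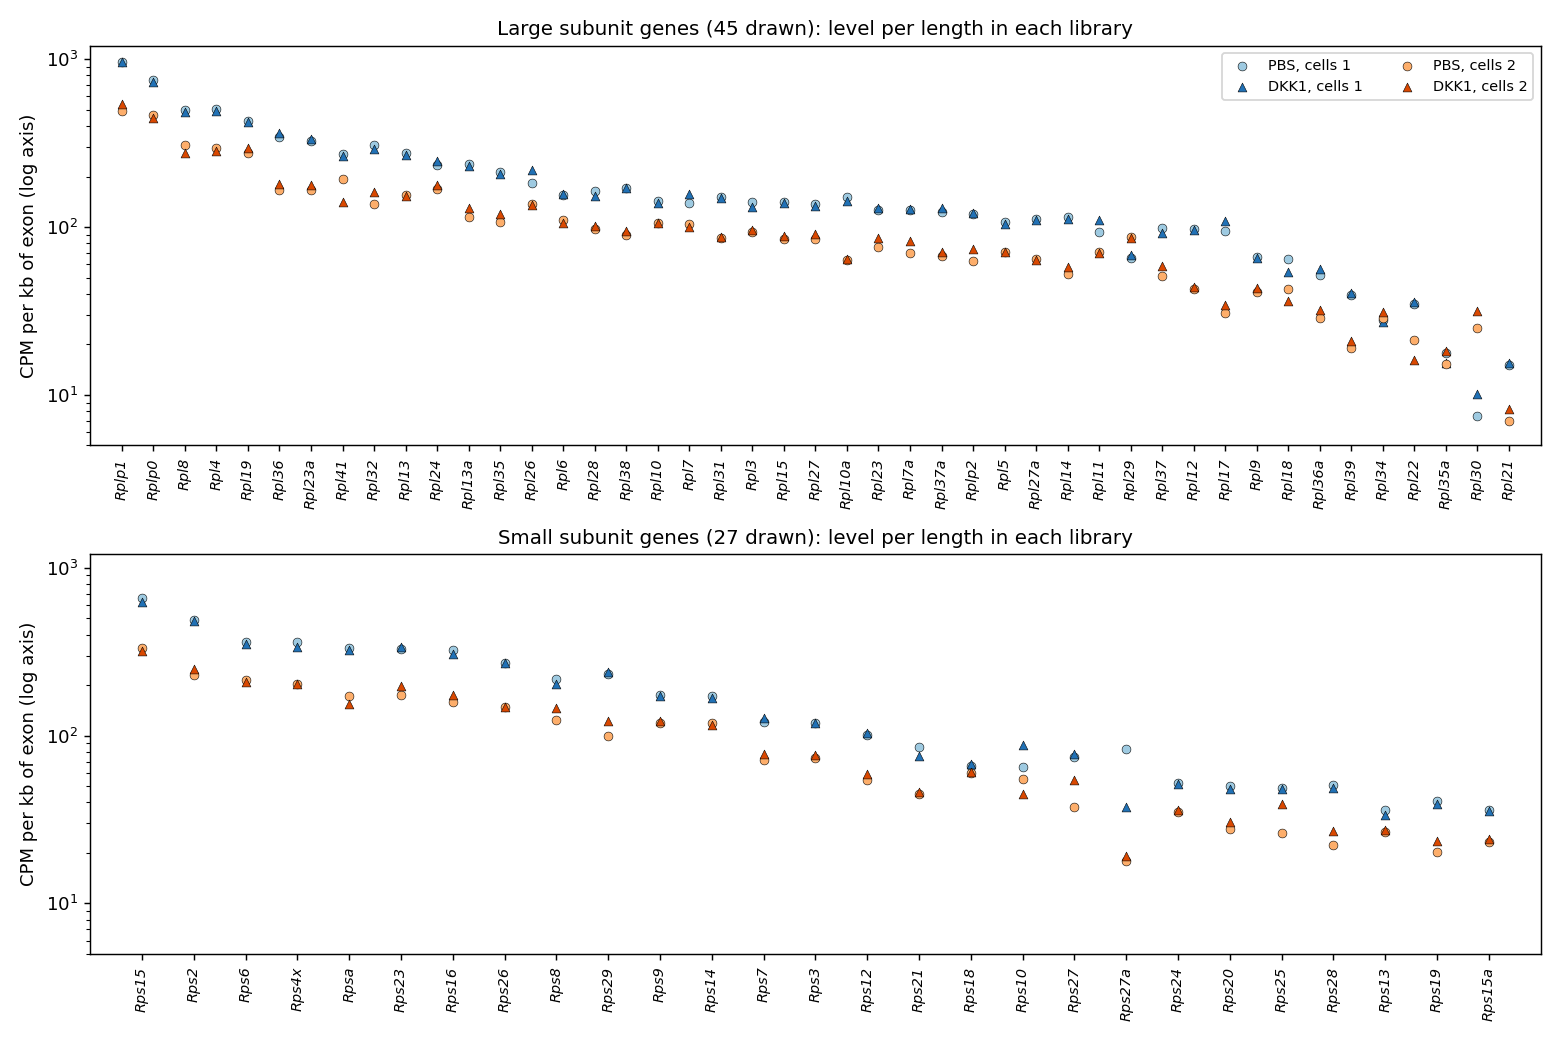
Level of members in each library, as CPM per kilobase of exon on a log axis, ordered by the mean of the PBS libraries (large subunit above, small subunit below). Rplp1 and Rps15 lead at PBS means of 729.5 and 497, and most genes are lower in both libraries of precursor cells 2 (orange).

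The comparison of DKK1 with PBS asked whether ribosomal protein mRNAs change within 3 h of DKK1. No member passed the test: 0 of 46 large subunit and 0 of 30 small subunit genes were called (edgeR quasi-likelihood test, Benjamini-Hochberg adjusted p under 0.05 over all genes tested, n = 2 pairs), against 9 of 17462 tested genes (0.0515%), 0.0401% higher and 0.0115% lower. At an unadjusted p under 0.05 there were 3 large subunit genes (Rpl30, Rpl18 and Rpl17) and 0 small subunit genes, against 4.47% of all tested genes. DESeq2 and limma-voom also called 0 members, against 46 and 2 of all tested genes. The median log2 change was 0.03 in the large and 0.01 in the small subunit, and -0.0015 over all tested genes. The 95% confidence interval had a median half-width of 0.15 (log2) and lay within 1.5-fold in either direction for 74 of 76 members, the exceptions being Rps25 and Rps27a.

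The pairs did not move the same way. In precursor cells 1 the median within-pair log2 change was -0.02 in the large and -0.03 in the small subunit, and in precursor cells 2 it was 0.07 and 0.05. Of the 46 large subunit genes, 13 were above 0 in both pairs, 10 below 0 in both and 23 opposite. Of the 30 small subunit genes, 7 were above 0 in both, 8 below 0 in both and 15 opposite. The same sign in both pairs was therefore seen in 50% of members, against 51.4% of all tested genes.

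**Figure D2:**
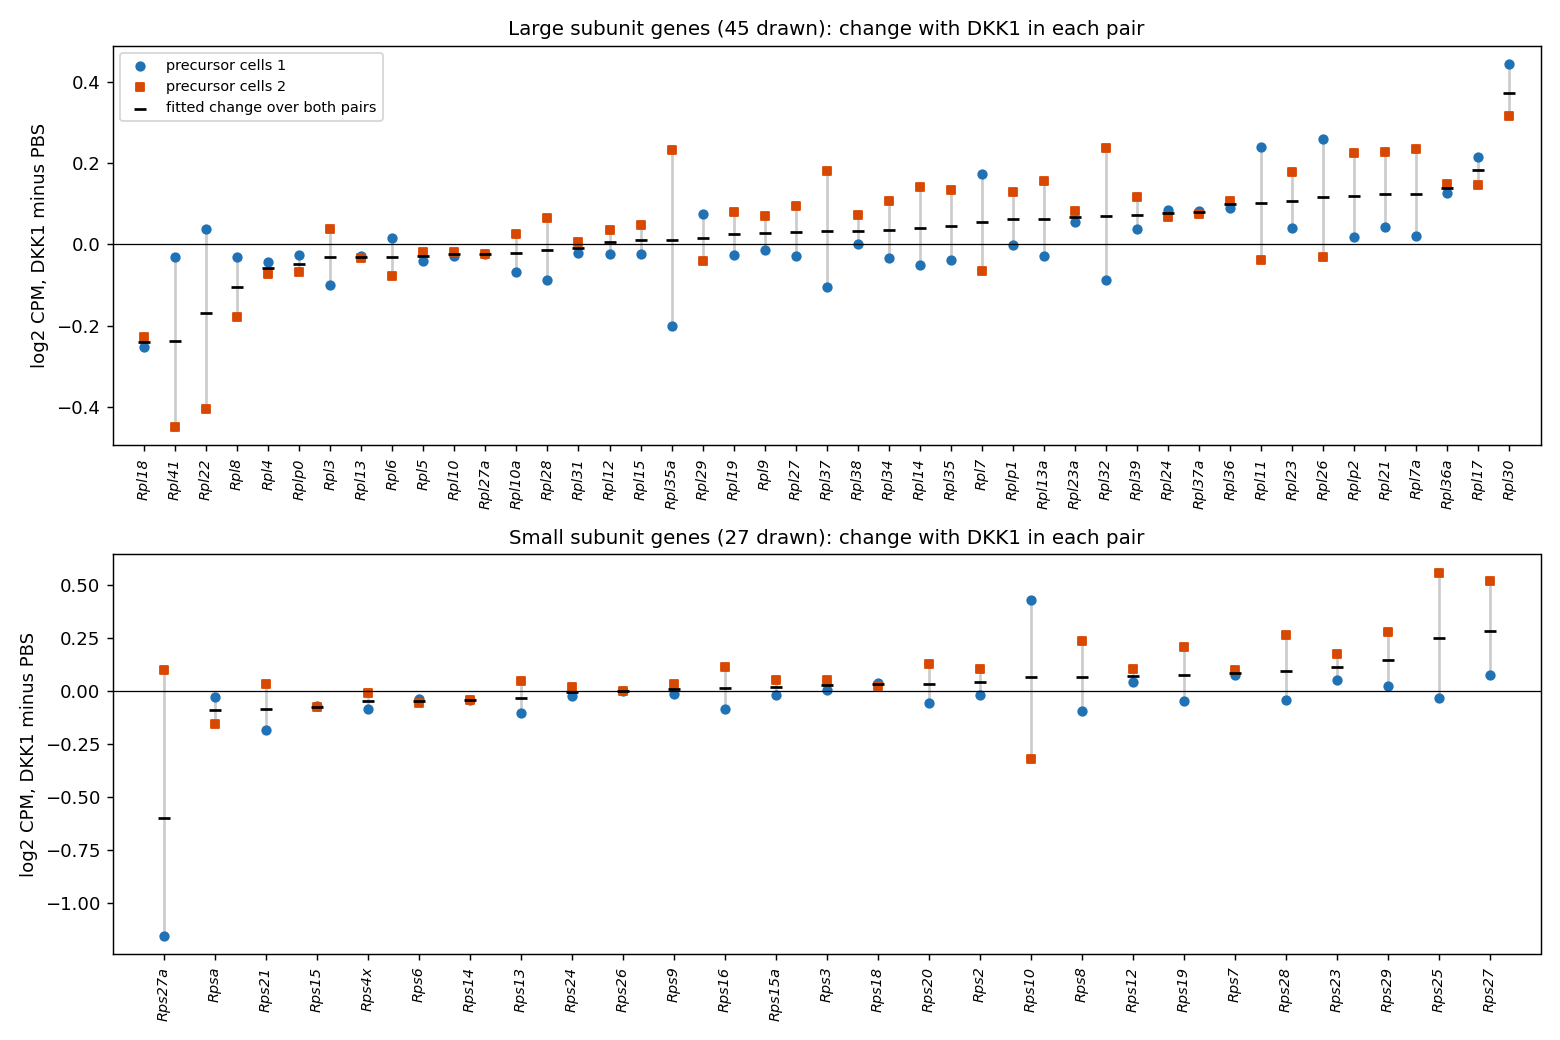
Change of members with DKK1, as log2 CPM of DKK1 minus PBS, in precursor cells 1 (blue circles) and precursor cells 2 (orange squares), with the fitted change over both pairs (black dashes). Most points lie near 0, Rps27a is at -1.16 and 0.10 in the pairs, and Rpl30 is above 0 in both.

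The stalk proteins Rplp0, Rplp1 and Rplp2 and the members Rpl5, Rpl11, Rps6 and Rpsa had fitted values from -0.09 to 0.12. In precursor cells 1 Rplp0 had 65974 counts with PBS and 65048 with DKK1, and in precursor cells 2 it had 31928 and 34233. Its fitted log2 change was -0.05 (95% CI -0.14 to 0.05). Rplp1 was at 0.06 (-0.07 to 0.20) and Rplp2 at 0.12 (-0.05 to 0.29). Rpl5 and Rpl11, which bind 5S ribosomal RNA and can hold the p53 ligase Mdm2, were at -0.03 (-0.15 to 0.09) and 0.10 (-0.09 to 0.30). Rpl11 went from 13421 to 15918 counts in the first pair and from 7897 to 8643 in the second, a log2 difference of 0.24 in the first pair and -0.04 in the second after scaling. Rps6 was at -0.05 (-0.16 to 0.06) and Rpsa, which also serves as a laminin receptor at the cell surface, at -0.09 (-0.21 to 0.02). None of these passed the test.

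Rpl30, a large subunit protein, had the highest fitted value. It had 1203 counts with PBS and 1644 with DKK1 in precursor cells 1, against 3126 and 4376 in the other pair. DKK1 was above PBS in both pairs, but the gap between the preparations was wider than the gap between treatments. The fitted log2 change was 0.37 (95% CI 0.17 to 0.58, edgeR adjusted p = 0.767). With its copies counted in, Rpl30 was at 0.18. Rpl17, which lines the peptide exit tunnel, was at 0.18 from its own counts (adjusted p = 0.959) and at 0.05 with copies.

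Rpl18 had the lowest value among large subunit genes with the same sign in both pairs. Its counts were 13848 with PBS and 11682 with DKK1 in precursor cells 1, against 7073 and 6788 in the other pair, so DKK1 was the lower library in each pair. The fitted log2 change was -0.24 (-0.38 to -0.11, adjusted p = 0.798) and -0.23 with copies, and it ranged from -0.46 to -0.01 with a library left out. Annotated exons of Rpl18 overlap those of Sphk2, and reads of the 2 genes cannot be told apart where the strand is not known. Rpl41, the shortest ribosomal protein, was also at -0.24 (-0.49 to 0.02), with 16834 and 16545 counts in the first pair and 9247 and 7616 in the second.

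Rps27a, which encodes ubiquitin fused to a small subunit protein, had the widest gap between pairs of any member. Its counts were 8771 with PBS and 3954 with DKK1 in precursor cells 1, against 1453 and 1748 in the other pair. The PBS library of precursor cells 1 was thus far above the other 3, and the second pair went the other way. The fitted log2 change was -0.60 (-1.28 to 0.08, adjusted p = 0.959). Its copy Rps27a-ps2 had 2074 and 3974 counts in the first pair and 1345 and 1796 in the second, so gene and copy went opposite ways in precursor cells 1. With all copies counted in, Rps27a was at -0.11. In the authors' deposited table for precursor cells 1, Rps27a has a log2 ratio of -1.15 with an FDR of 3.57e-58 and is the 1 member of 76 marked significant, against 0.921% of the genes listed there. That table compares 1 library with 1 library, and it lists 10 of 76 members with an FDR under 0.05 (6 with a positive and 4 with a negative ratio), against 19% of its genes. In the authors' deposited table for precursor cells 2, 0 of 76 members are marked, against 0.987% of the genes listed, and 17 members have an FDR under 0.05 (11 positive, 6 negative), against 16.7%.

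In the small subunit, Rps27 had 4115 and 4357 counts in the first pair and 1611 and 2592 in the second. Its fitted log2 change of 0.28 (-0.01 to 0.57) came mostly from the second pair, at 0.52 against 0.08 in the first. With copies counted in, Rps27 was at 0.09 and its pairs at 0.06 and 0.14. Rps29 was at 0.14 (-0.06 to 0.35), with 8630 and 8818 counts in the first pair and 2839 and 3873 in the second. Both missed the threshold. Among other small subunit genes with the same sign in both pairs, Rps23 (0.11), Rps7 (0.09, but 0.03 with copies) and Rps12 (0.07, but 0.03 with copies, where its pairs took opposite signs) lay above 0, and Rps15 (-0.08) and Rps4x (-0.05) below it. In the large subunit Rpl36a (0.14), Rpl7a (0.12, but -0.03 with copies) and Rpl21 (0.12, but 0.06 with copies) lay above 0, and Rpl8 (-0.10) and Rpl4 (-0.06) below it, all without passing the test.

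Genes that share regulation or function with the family gave 0 calls with DKK1 in every list by edgeR, DESeq2 or limma-voom. Calls were rare over all 17462 tested genes too, at 9, 46 and 2 by these tools. At an unadjusted p under 0.05, edgeR had 7 of the 189 genes in the lists, against 4.47% of all tested genes. Median log2 changes follow by list. Other TOP mRNAs (20 tested) were at -0.01 and ribosome biogenesis factors (36 tested) at -0.04. Small nucleolar RNA hosts and other TOP RNAs, all noncoding but Eif4a2 (10 tested), were at -0.04. Ribosomal components, paralogs and precursors outside the name rule (11 tested) were at 0.0045. Genes of mTORC1 and TOP translation control with Myc, Max and Mxd1 (21 tested) were at -0.0037. Trp53 and its targets (14 tested) were at -0.06, and mitochondrial ribosomal proteins (78 tested) at 0.01. Among the values with the smallest p in their lists, the translation elongation factor Eef2 was at -0.07 (-0.15 to 0.01) and Pabpc1, the poly(A) tail binding protein, at -0.15 (-0.27 to -0.02), both with an edgeR adjusted p of 0.959.

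The comparison of precursor cells 2 with precursor cells 1 describes the difference between the preparations, with the treatment as a term in the same fit. Ribosomal protein genes were lower in precursor cells 2. In the large subunit 42 of 46 genes were called lower and 3 higher, and in the small subunit 26 of 30 were called lower and 0 higher (edgeR, adjusted p under 0.05). Over all tested genes, 33.8% were called, 15.9% lower and 17.9% higher. At an unadjusted p under 0.05 it was 74 of 76 members, against 44.5% of all tested genes. All 76 members had an average log2 CPM of 5 or more, and of the 5592 tested genes at that level 53.7% were called, 23.6% lower and 30% higher, with 63.8% at an unadjusted p under 0.05. The median log2 difference was -0.58 in the large and -0.62 in the small subunit, against -0.0034 over all tested genes. Scaling to library totals alone lowered the median of all tested genes by 0.17, and there the members' medians were -0.75 and -0.79. The difference is between 1 preparation and 1 other, and in bulk RNA fewer cells of a type and less RNA per cell cannot be told apart.

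Rplp0 was 1.44-fold lower in precursor cells 2 (log2 -0.52, 95% CI -0.61 to -0.43, adjusted p = 0.000309). In CPM per kilobase it stood at 747 and 732.4 in precursor cells 1 and at 467.5 and 448.5 in precursor cells 2, so the preparations did not overlap. Levels in CPM per kilobase are scaled to library totals alone, so their ratios between preparations differ from the fitted folds. Rplp1 was 1.66-fold lower (log2 -0.73, -0.86 to -0.59) and Rplp2 1.57-fold lower (-0.65, -0.82 to -0.48). Rps6 was 1.49-fold lower, at 360.2 and 349.9 CPM per kilobase against 215.6 and 208.7. Rpl5 and Rpl11 fell by 0.40 and 0.36 on the log2 scale, Rpl11 without a call when genes were not filtered or when PBS of precursor cells 2 or either DKK1 library was left out.

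Among the members with the largest falls, Rpl10a, the protein of the mobile stalk where tRNAs leave the ribosome, stood at 150.5 and 143.4 CPM per kilobase in the first preparation against 63.29 and 64.83 in the second. Its log2 difference was -1.03 (adjusted p = 9.57e-05) and -1.04 with copies. Rpl12, part of the stalk base, fell by 0.98, Rps29 by 0.93, Rps2 by 0.84 and Rpsa by 0.84. Rps27a was at -1.42 (adjusted p = 0.0123), a call that was lost with DESeq2, without a filter and without either library of precursor cells 2. Its size also varied, at -2.05 between the PBS and -0.79 between the DKK1 libraries, -2.00 to -0.84 with a library left out and -1.03 with copies. The 5 members that were not called were Rps10 (-0.43), Rps25 (-0.42), Rps13 (-0.20), Rps18 (0.02, below 0 under upper-quartile and library-total scaling and without a filter) and Rpl35a (0.18).

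The members that departed most from the common fall had copies with many counts. Other members with many copy counts fell with the rest. Rpl7a (own share 29.3%) was at -0.58, Rps12 (46.3%) at -0.68 and Rpl21 (13.9%) at -0.85. What made some members depart was not tested. Rpl30 was higher in precursor cells 2, at 7.483 and 10.17 CPM per kilobase in precursor cells 1 against 25.15 and 31.49 (log2 1.86, 1.65 to 2.06, adjusted p = 4.80e-05). The pseudogene Gm12191, 1 base apart from it over the aligned stretch shown above, went the other way, from 5377 and 5652 counts in precursor cells 1 to 500 and 505 in precursor cells 2. The Rpl30 model took 15.4% and 19.4% of the counts of gene and copies in the first preparation but 80.5% and 83.9% in the second. Summed with its copies, Rpl30 was lower in precursor cells 2, at -0.40.

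For Rpl34 and Rpl29, also called higher, a copy with many counts went the opposite way. Rpl34 had 3929 and 3860 counts in the first preparation against 3120 and 3777 in the second, a log2 difference of 0.28 after scaling (adjusted p = 0.0342). That call was lost under both other scalings, with DESeq2, without a filter and with any library left out. Rpl34-ps1 had 5342 and 5781 against 1116 and 1381, and the sum was at -0.64. Rpl29 was at 0.55 from its own counts and at -0.31 summed. Its copy Gm8210 had 3968 and 3917 counts against 172 and 163. Its most counted copy, Gm6344, had 3442, 3502, 2900 and 3388 in the same order of libraries. These counts of Gm6344 fell less steeply than the library totals, so relative to the totals it was higher in precursor cells 2, as Rpl29 was. Copies of 1 gene therefore did not all move alike.

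**Figure D3:**
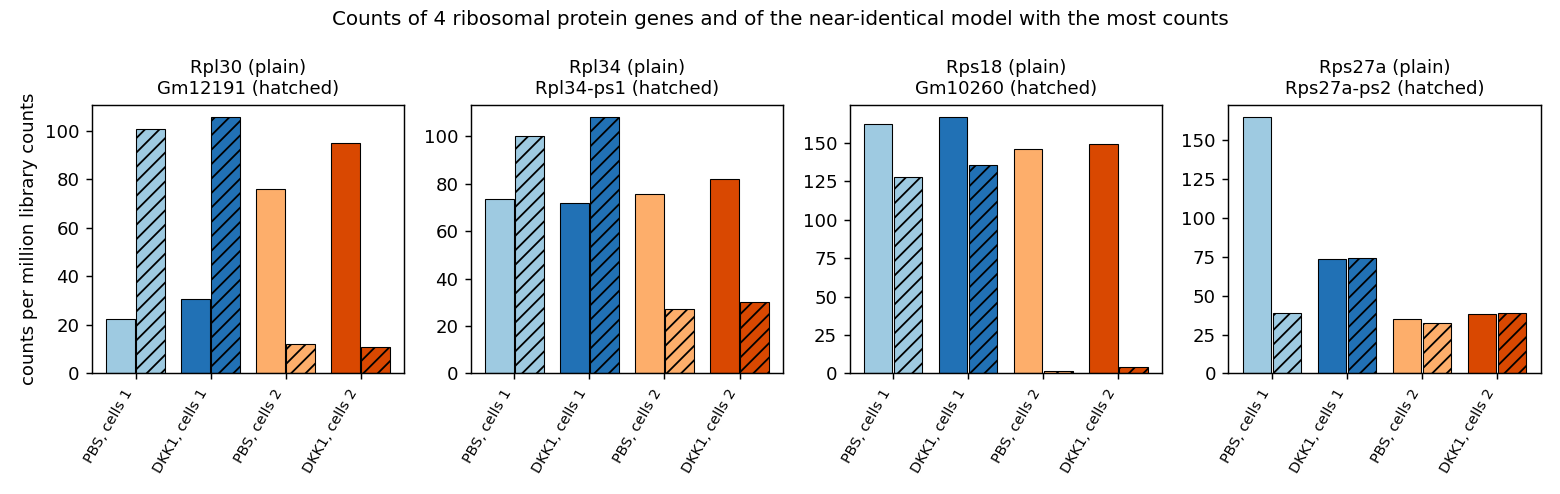
CPM of 4 members (plain bars) and of the near-identical model with the most counts for each (hatched bars) in the 4 libraries. The copies of Rpl30, Rpl34 and Rps18 are high in both libraries of precursor cells 1 and low in both of precursor cells 2, and Rps27a is high only with PBS in precursor cells 1 among these libraries.

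Copies of Rps18 were lower in precursor cells 2 although Rps18 itself was not called. It had 8646, 8916, 6014 and 6872 counts (PBS and DKK1 in precursor cells 1, then in precursor cells 2), while Gm10260 had 6809, 7251, 79 and 181 and Rps18-ps3 had 1762, 1819, 108 and 157. Summed with its copies, Rps18 was at -1.01. Rpl3, a large subunit protein near the peptidyl transferase centre, went from -0.35 to -0.80 when its copies were added, with Rpl3-ps1 at 9101, 9776, 708 and 967 counts. Rpl17 went the other way, from -1.48 to -0.36.

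With copies summed for every member, 75 of 76 were called lower in precursor cells 2 and 0 higher, and Rps25 (edgeR adjusted p = 0.0784) was the remaining gene. In that fit 5753 of all 17139 tested genes were called, in either direction. All 76 log2 differences were below 0, from -1.04 to -0.29, with medians of -0.62 in the large and -0.65 in the small subunit. The SD over members was 0.19, against 0.41 from own counts. Among the 38 members whose own model held over 90% of the summed counts the SD was 0.19 with and without copies. Their sums are mostly the same counts, so that SD could change little by construction. Among the 8 members under 50%, whose sums are mostly copy counts, the SD went from 1.03 to 0.16. The split therefore cannot show where the departures came from. With DKK1, the sums gave 0 calls of members, against 5 of 17139 tested genes. At an unadjusted p under 0.05 there were 2 members, against 758 of all tested genes. The SD over members was 0.08 with DKK1, against 0.12 from own counts. The sums also contain any transcription of the copies themselves, which was not told apart from reads of the parent gene.

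**Figure D4:**
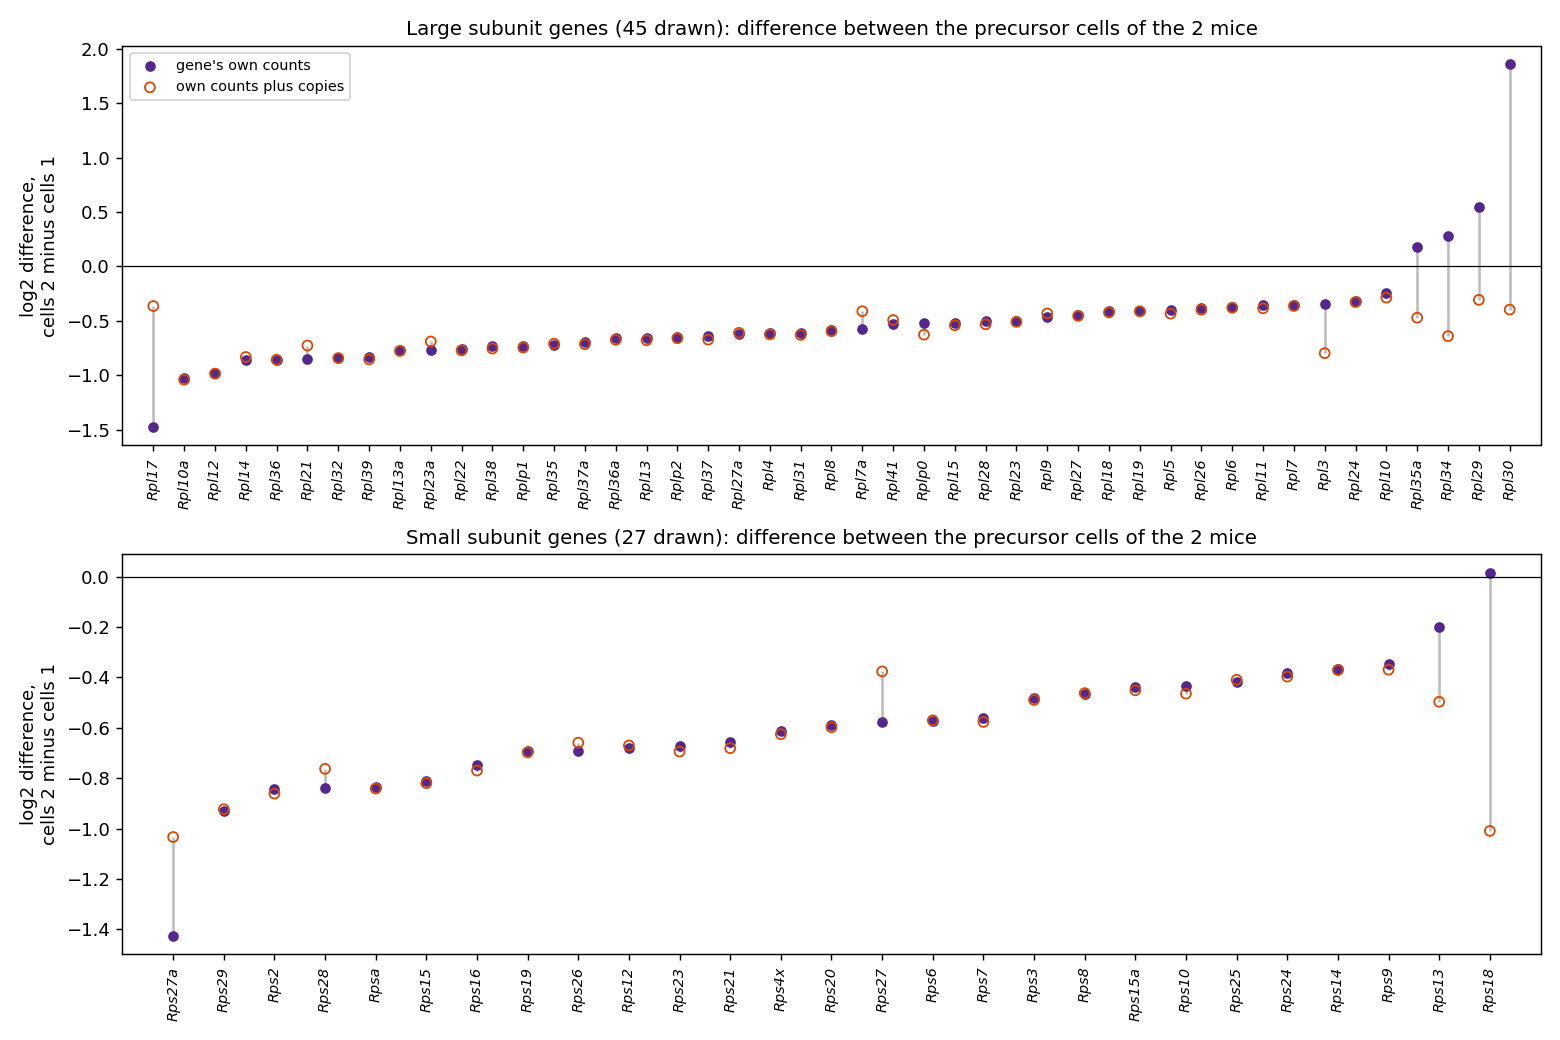
Log2 difference of precursor cells 2 minus precursor cells 1 for members, from their own counts (filled) and summed with their pseudogene and near-identical models (open). Own counts run from -1.48 (Rpl17) to 1.86 (Rpl30), and the sums lie between -1.04 and -0.29.

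Members with and without a TOP tract had close medians. The 25 members with a tract at an annotated start had a median log2 difference between preparations of -0.58, and the 31 without one -0.56. With DKK1 the medians were 0.02 and 0.03. These are descriptions, and annotated starts can lie some bases from the start used in these cells.

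Lists of other genes of protein synthesis are read against the 15.9% of all tested genes called lower and 17.9% called higher. Of 20 other TOP mRNAs, 18 were called lower and 0 higher (median -0.43), with the elongation factor Eef1a1 at -0.52 (adjusted p = 9.80e-05) and Nap1l1, a histone chaperone, at -1.07. Of 36 ribosome biogenesis factors, 27 were called lower and 1 higher (median -0.75), with nucleolin (Ncl) at -0.83 and Mybbp1a, a nucleolar regulator of rRNA synthesis, at -0.76. Of 10 host and other TOP RNAs, all noncoding but Eif4a2, 7 were called lower and 1 higher (median -0.81), with Gas5 at -1.05. Of 11 ribosomal components, paralogs and precursors outside the name rule, 5 were called lower and 1 higher, Rps4l (2.27). The lower ones included Rps3a1 (-0.57) and Rack1 (-0.86), small subunit components that the name rule misses. Of 78 mitochondrial ribosomal proteins, 18 were called lower and 3 higher (median -0.12), and 30 had values above 0. Their 21 calls of 78 were a smaller share than the 33.8% over all tested genes. By direction, the share called lower was above the 15.9% over all tested genes, and the share called higher was below the 17.9%.

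Of 21 genes of mTORC1 and TOP translation control, with Myc, Max and Mxd1 among them, 4 were called lower and 4 higher (median 0.01). These calls were close to the shares over all tested genes. Myc, a transcription factor that drives ribosome biogenesis, went from 3051 and 3007 counts in precursor cells 1 to 516 and 597 in the other preparation (log2 -1.98, adjusted p = 6.93e-05), and Mxd1, which opposes Myc, was at 0.63. Of 14 genes on the p53 list, which holds Trp53 itself and its targets, 7 were called higher and 2 lower (median 0.43). The cell cycle inhibitor Cdkn1a was at 1.32 and Trp53inp1 at 1.51.

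Markers of other cell types moved between the same preparations. Of 8 B lineage markers, 8 were called lower in precursor cells 2, with a summed level of 199.5 and 128.7 CPM in precursor cells 1 and 26.36 and 27.06 CPM in precursor cells 2, and Vpreb1 and Igll1 were at 0 counts in both of the latter. Of 8 neutrophil markers, 8 were called higher, with sums of 5021 and 4966 CPM against 8268 and 8540 CPM. Erythroid markers were called higher in 5 and lower in 1 of 7 tested (123 and 90.93 CPM against 157.2 and 121.8 CPM), stromal markers higher in 2 of 6 (65.95 and 80.11 CPM against 99.85 and 99.76 CPM), and T and NK markers in 0 of 4 tested (11.12 and 8.05 CPM against 9.401 and 7.216 CPM). Of 11 myeloid IDs, 4 were called higher, led by Ly6c2 at 2.84, and 1 lower, Lyz2 at -0.78. The part of these differences in the ribosomal protein result was not tested.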

How the data were processed

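RNA sequencing libraries from 2 preparations of precursor cells, each with PBS and DKK1 for 3 h, were analysed from the deposited tables. Per the submitters' processing notes reads were handled with fastp and HISAT2 on mm10; the counting program, its annotation and its treatment of strand and of reads with several positions are not stated there. The deposited gene table gives whole-number, unnormalized counts. For each pair a further deposited table gives log2 ratios of 1 library against 1, and the test behind the deposited p-value and FDR columns is not named; the authors' mark of significance needs an FDR under 0.05 and an absolute log2 ratio no smaller than 1. The FPKM values in the authors' deposited tables are scaled to gene length and depth and were used only to compare lengths: the length they imply was within 2% of 1.11 times the exon union for 70 of 76 members.

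Counts were fitted for all genes passing filterByExpr (17462) with edgeR 4.0.16 in R 4.3.3 (TMM, quasi-likelihood, legacy off), with terms for precursor cells and treatment and 1 residual degree of freedom. Tests are two-sided, adjusted by Benjamini-Hochberg over all genes tested. The p-values measure the spread between these 4 libraries, since no preparation was repeated, and the script was tested on simulated data. Same-numbered libraries come from the same numbered precursor cells, per the labels, which name 2 mice; their deviations from the group means correlated at 0.726 and principal component 1 (76.1% of variance) parted the preparations. Within-pair differences are log2 CPM with a prior count of 2. Levels of members are CPM per kilobase, scaled to library totals without the TMM factors that the fitted differences use.

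Copies were GENCODE M21 models with at least 95% identity to a member over at least 100 bases and 50% of the shorter transcript (BLAST 2.17.0), plus models named as its pseudogenes: 795 models, of which 644 had a count, for 75 of 76 members. Models overlapping the member's own exons or a copy with more counts (5 models), small RNA models and genes of another name were left out. Alternatives were upper-quartile and library-total scaling, DESeq2 1.42.0, limma-voom (3.58.1), other filters, no replicate block, each library left out, and sums with copies.

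Members and gene lists were chosen with earlier results of these data known. Named members were, per subunit, comparison and direction, up to 6 with the largest log2 value of the same sign in both pairs or treatments, the 3 highest and 3 lowest levels, and Rplp0, Rplp1, Rplp2, Rpl5, Rpl11, Rps6, Rps27a, Rpl41 and Rpsa (40 in all, of which the values of some are not reported here or drawn); of each other list, 2 with the smallest p, and of copies up to 3 per member. Rpl3, Rpl22, Rps10, Rps25, Csf1r, Tnfrsf11a, Vpreb1, Igll1, Rack1 and the copies of Rpl3 were named after their values were seen.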

Additional observations from a re-analysis of the deposited data

Results flagged for a closer look

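The change with DKK1 went opposite ways in the 2 preparations for several results. With 1 pair per preparation the difference between pairs could not be tested. Differences are the log2 change with DKK1 in precursor cells 2 minus that in precursor cells 1. The subunit medians differed by 0.0911 (large) and 0.0764 (small). Rps27a differed by 1.25, from -1.16 to 0.10, and with copies its fitted change was -0.11.

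Among the other large subunit genes, Rpl35a differed by 0.434, Rpl14 by 0.192, Rpl34 by 0.139, Rplp1 by 0.130, Rpl10a by 0.0937 and Rpl12 by 0.0577, with DKK1 below PBS in precursor cells 1 and above it in precursor cells 2. Rpl29 (-0.114) and Rpl11 (-0.279) went from above to below. In the small subunit Rps28 differed by 0.306, Rps19 by 0.256, Rps13 by 0.151, Rps2 by 0.126 and Rps15a by 0.0714. Among members named after their values were seen, Rps10 differed by -0.750 (0.43, then -0.32), Rps25 by 0.591 (-0.03, then 0.56), Rpl22 by -0.441 (0.04, then -0.40) and Rpl3 by 0.139. The gap between preparations also had opposite signs for Rpl35a, at -0.04 with PBS and 0.39 with DKK1, again a difference of 0.434.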

How the results depend on the processing

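No alternative called a member with DKK1, and the subunit medians kept their sign under scaling, filter, tool, block and copy alternatives. The fit with no replicate block changed no call of a member with DKK1: 0 were called with and without the block. Leaving out a library forces a fit without the block, so that by construction the difference between preparations enters the change with DKK1. There the large subunit median ranged from -0.32 to 0.30, the small subunit median from -0.31 to 0.39, and 0 genes were called (85 to 131 at an unadjusted p under 0.05). Values of members ranged as follows: Rpl10a -0.61 to 0.60, Rpl11 -0.15 to 0.35, Rpl12 -0.56 to 0.59, Rpl14 -0.42 to 0.57, Rpl17 -0.75 to 1.09, Rpl18 -0.46 to -0.01, Rpl21 -0.32 to 0.66, Rpl22 -0.70 to 0.29, Rpl29 -0.26 to 0.34, Rpl3 -0.23 to 0.19, Rpl30 -0.81 to 1.61, Rpl34 -0.14 to 0.21, Rpl35a -0.17 to 0.21, Rpl36 -0.39 to 0.60, Rpl36a -0.22 to 0.51, Rpl4 -0.40 to 0.28, Rpl41 -0.62 to 0.12, Rpl5 -0.24 to 0.19, Rpl7a -0.19 to 0.49, Rpl8 -0.46 to 0.21, Rplp0 -0.34 to 0.23, Rplp1 -0.32 to 0.50, Rplp2 -0.23 to 0.53, Rps10 -0.35 to 0.46, Rps12 -0.30 to 0.46, Rps13 -0.17 to 0.11, Rps15 -0.54 to 0.39, Rps15a -0.20 to 0.27, Rps19 -0.30 to 0.52, Rps2 -0.42 to 0.55, Rps23 -0.24 to 0.51, Rps25 -0.094 to 0.62, Rps27 -0.093 to 0.71, Rps27a -1.50 to 0.55, Rps28 -0.35 to 0.65, Rps29 -0.35 to 0.74, Rps4x -0.37 to 0.31, Rps6 -0.37 to 0.26, Rps7 -0.22 to 0.40, Rpsa -0.59 to 0.36. The number of all genes called with DKK1 (9) was 5 with upper-quartile scaling, 3 with library totals, 46 with DESeq2, 2 with limma-voom, 0 without a filter (911 at an unadjusted p under 0.05), 2 with the stricter filter, 0 with no replicate block (115 at an unadjusted p under 0.05) and 5 with copies summed. Fitted signs turned for Rpl12 (-0.0018 with limma-voom, -0.0031 with no replicate block) and, with copies, for Rpl3 (0.0011), Rpl29 (-0.020), Rpl7a (-0.034) and Rps28 (-0.0125).

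Between preparations, the large subunit median was -0.63 with upper-quartile scaling, -0.75 with library totals, -0.61 without a filter, -0.62 with copies and -0.58 to -0.55 with a library left out; the small subunit median was -0.79 with library totals. All genes called were 3507 without a filter and 3194 to 4570 with a library left out. Rps18 was -0.035, -0.16, -0.011 and -1.01 with upper-quartile scaling, library totals, no filter and copies, and -0.0052 to 0.034 with a library left out. Rps25 was called with library totals (-0.59), with DESeq2 (-0.41) and without DKK1 of precursor cells 2 (-0.71), Rps10 with copies (-0.46) and without PBS of precursor cells 1 (-0.64), and Rpl3 was not called without PBS of precursor cells 2 (-0.33). With copies Rpl29 was at -0.31, Rpl30 at -0.40, Rpl35a at -0.47 and Rpl34 at -0.64. Over the alternatives with all 4 libraries, members called ranged from 63 without a filter to 75 with copies. The calls over all tested genes were 3507 of 26361 and 5753 of 17139 in these fits. The lowest count of a member in any library was 973 (Rpl21), and the number of preparations, 2, limits the precision.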
